A study of Mus musculus with 9 samples.

Results

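The genes described are the 6 accessory subunits of Polycomb repressive complex 2 (PRC2): Phf19, Mtf2, Phf1, Epop, Jarid2 and Aebp2. They were found by symbol among the 56980 gene identifiers of the count table, where each of the 6 had 1 row. All 6 passed the filter on low counts, which left 17001 genes for testing. The study sequenced polyadenylated RNA from cultured mouse oligodendrocyte progenitor cells (OPCs), the dividing precursors of myelin-forming cells, in 3 groups of 3 libraries. BB-p53n EZH2i libraries came from Trp53 -/- OPCs that express PDGF-BB and were given 5 µM tazemetostat, an inhibitor of the methyltransferase EZH2, for 48 hours. BB-p53n DMSO libraries came from the same PDGF-BB cells with DMSO as vehicle at a dilution of 1 in 10000. The p53n libraries came from Trp53 -/- OPCs, for which no PDGF-BB expression and no vehicle is recorded. A treatment time is not recorded for the DMSO libraries, nor a DMSO dilution for the EZH2i libraries. All 3 groups lacked p53 and grew in SATO medium with 10 ng/mL PDGF-AA, so every group had a PDGF receptor ligand. PDGF-BB and vehicle therefore cannot be told apart in the comparison with p53n. The labels call the cells primary OPC lines without naming separate cultures behind the 3 libraries of a group. The spread that enters each p-value is that between libraries and may be technical.

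PRC2 methylates lysine 27 of histone H3 and so holds developmental genes silent. Its core is the scaffold SUZ12 with EED, a histone-binding RBBP protein and a catalytic subunit, EZH2 or EZH1. Accessory subunits dock on SUZ12 and divide the complex into 2 kinds. One kind carries a Polycomb-like protein (PHF19, MTF2 or PHF1), which binds CpG-rich DNA and guides the complex to CpG islands, and may also carry EPOP. The other carries JARID2 and AEBP2, which stimulate the enzyme and bind nucleosomes. In the oligodendrocyte lineage PRC2 is known for holding back genes of other neural fates. No protein or histone mark was measured here, only RNA.

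The genes lie on 6 chromosomes (GRCm39). Phf19 is on the minus strand of chromosome 2 from 34783769 to 34804038, Mtf2 on the plus strand of chromosome 5 from 108213540 to 108256870, and Phf1 on the plus strand of chromosome 17 from 27152026 to 27156882. Epop is on the minus strand of chromosome 11 from 97518215 to 97520528, Jarid2 on the plus strand of chromosome 13 from 44882950 to 45075119, and Aebp2 on the plus strand of chromosome 6 from 140568389 to 140624198. Reads were counted without strand, so exon bases shared with a gene on the opposite strand cannot be told apart. Phf1 shared 43.8% of its 3486 exon bases with other genes, 39.3% of them with Cuta, and Mtf2 shared 6.93% of 5698 with Tmed5. The other 4 members shared none. The level of Phf1 is therefore uncertain.

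Promoter sequence was read for 5 of the 6 members, all but Epop, from RefSeq's annotation of GRCm38.p6. Stretches of Phf19 and Jarid2 are shown because Phf19 had the highest and Jarid2 the lowest log2 fold change of PDGF-BB cells over p53n cells among the 6. Each stretch runs from 230 to 131 bases before the start of transcription, read 5′ to 3′ on the gene's own strand. Capitals mark a match to an E2F-type motif.
Phf19, chr2:34914107-34914206, minus strand: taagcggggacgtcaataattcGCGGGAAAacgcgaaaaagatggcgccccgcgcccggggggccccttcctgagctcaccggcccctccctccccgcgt
Jarid2, chr13:44730544-44730643, plus strand: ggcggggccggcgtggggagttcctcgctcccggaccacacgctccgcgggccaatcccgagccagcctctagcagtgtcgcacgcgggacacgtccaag
The motifs searched, on both strands over 250 bases before each start, were TTTCCCGC, TTTGGCGC, TTTCGCGC and TTTGCCGC. Phf19 held 1 match, to TTTCCCGC on the opposite strand, from 208 to 201 bases before the start. None of the 8 promoters of Jarid2, Mtf2, Phf1 and Aebp2 held a match in this window. Over all 32851 promoters of the same length, 611 (1.86%) held at least 1 match. The Phf19 promoter had 31 CpG dinucleotides in 250 bases, the Jarid2 promoters 23 and 22, and the median promoter 6. A match is a description of letters and was not tested as a binding site.

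Total counts ran from 19471768 to 25008897 in BB-p53n EZH2i, from 32727333 to 34557109 in BB-p53n DMSO and from 22628267 to 27979456 in p53n. Levels are given in CPM, counts scaled by TMM to one common library size, where 3 counts stand for 0.0888 to 0.16 CPM. Changes are log2 fold changes with their standard errors (SE) from edgeR's quasi-likelihood test, and p-values were adjusted by Benjamini-Hochberg over all genes tested, with a gene called at an adjusted p under 0.05. OPC markers were abundant, but single ones moved both ways, with log2 fold changes of DMSO over p53n from -3.85 to 7.07. Their summed levels were 4899 to 5188, 6362 to 6437 and 8115 to 8692 CPM in EZH2i, DMSO and p53n. Summed markers of differentiating oligodendrocytes took 599 to 631, 464 to 514 and 1888 to 1950 CPM in the same order, those of astrocytes 358 to 384, 454 to 485 and 931 to 1105 CPM, and those of neurons 596 to 718, 1723 to 1880 and 2101 to 2132 CPM. Summed markers of microglia, endothelium, and mural cells and fibroblasts were at most 2.87, 14.2 and 3.25 CPM in any library. C1qa, a microglial marker, had 0 counts in all 9 libraries. The p53n and BB-p53n cultures also differed in Xist, the RNA of the inactive X chromosome, at 2.82 to 17.4 CPM in EZH2i, 46.2 to 65 in DMSO and 2777 to 3101 in p53n. PDGF-BB and culture cannot be told apart in any comparison with p53n, and the part of the marker shifts in the results below was not tested.

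In PDGF-BB cells with vehicle against p53n cells, Phf19, Phf1, Epop and Aebp2 rose, Jarid2 fell, and Mtf2 did not pass the test. In that comparison 69.3% of all genes were called, 35.3% higher and 34% lower, so 5 calls among 6 members is not a result about the members. The median log2 fold change of the 6 was 1.11, against -0.02 over all genes tested. With the inhibitor, Epop and Phf19 rose over DMSO, Mtf2, Aebp2 and Jarid2 fell, and Phf1 did not pass, where 72.9% of all genes were called, 37.3% higher and 35.6% lower. Here the members' median was -0.32, against 0.02 over all genes tested. In this bulk RNA, fewer cells of a type and less RNA per cell cannot be told apart.

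One property of the libraries bears on every value of the EZH2i group. Across 12470 genes the log2 fold change of EZH2i over DMSO rose with the GC content of the longest transcript (Spearman's rho 0.734). It fell with the exon length of the gene (rho -0.442). For DMSO over p53n the values were 0.137 and -0.0747. These are descriptions across genes, which share the same libraries. GC content of the longest transcript was 66.9% in Epop, 58.6% in Phf1, 53.9% in Phf19, 48.8% in Jarid2, 40.9% in Aebp2 and 38.2% in Mtf2. When genes were sorted into 10 bins by GC content, the bin of Mtf2 and Aebp2 had a median log2 fold change of -1.39 in EZH2i over DMSO, that of Jarid2 -0.08, that of Phf19 0.62 and that of Phf1 and Epop 0.83. Each member is therefore also given after the dependence on GC content and length was taken out of every library, called corrected below. Whether that trend came from the cells or from the libraries was not tested, and neither scale is known to be the nearer to the cells.

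**Figure D1:**
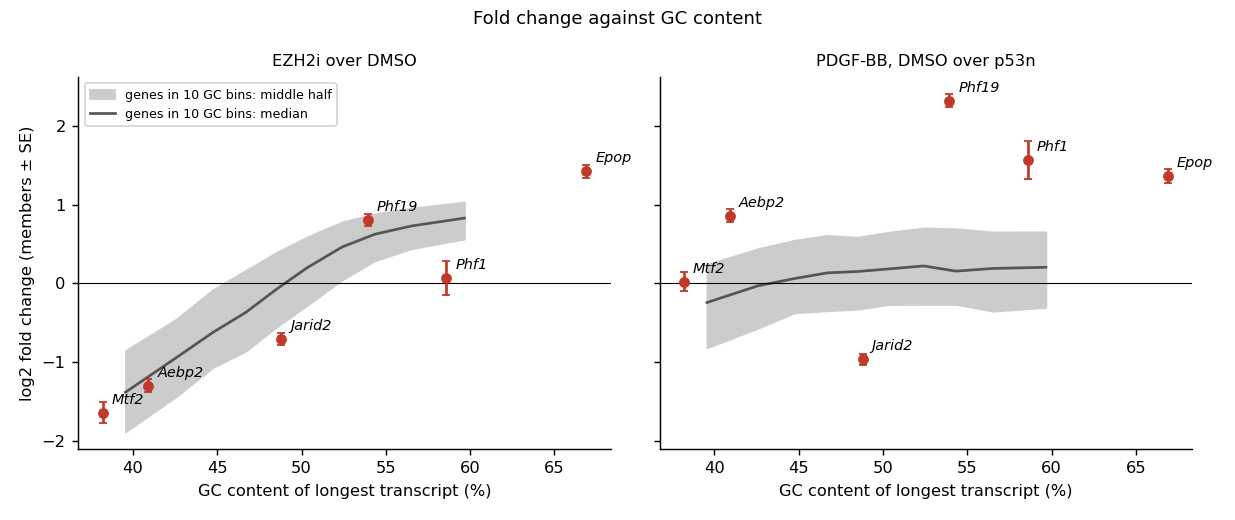
The log2 fold change (y axis, members with SE) is plotted against the GC content of the longest transcript in percent (x axis) for EZH2i over DMSO (left) and DMSO over p53n (right); the line and band give the median and middle range of genes in 10 bins of GC content. On the left Mtf2 (-1.64) and Aebp2 (-1.30) sit near the line at low GC content, with Phf1 (0.07) and Jarid2 (-0.71) below it and Epop (1.42) above, whereas on the right Phf19 (2.32) lies far above a nearly flat line.

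Phf19, a Polycomb-like subunit with a Tudor domain that reads a methyl mark of transcribed genes, showed a level that differed between all 3 groups. Its levels were 101, 105 and 109 CPM in the EZH2i libraries, 58.6, 62.1 and 59.1 CPM in the DMSO libraries and 11.2, 13.3 and 11.4 CPM in the p53n libraries. The 3 groups did not overlap, and the 3 p53n libraries were the lowest. Of all genes tested, 75.3% had no overlap between EZH2i and DMSO, 76.1% none between DMSO and p53n and 82.2% none between EZH2i and p53n, so a lack of overlap does not set a member apart. Phf19 rose by 2.32 (SE 0.08, adjusted p = 1.69e-15) in DMSO over p53n, and 2.71% of the genes tested rose by more. The corrected value was 2.26 (SE 0.07, adjusted p = 5.54e-17). Relative to DMSO, it rose in EZH2i by 0.81 (SE 0.07, adjusted p = 5.8e-09) and, corrected, by 0.33 (SE 0.06, adjusted p = 0.000118). In EZH2i over p53n it rose by 3.13 (SE 0.08), and by 2.58 corrected. Genes of the S phase of the cell cycle moved beside it: the summed level of 25 such genes was 5687 to 6185 CPM in EZH2i, 3998 to 4245 in DMSO and 856 to 883 in p53n. Their part in the level of Phf19 was not tested.

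Mtf2, the Polycomb-like subunit known in mouse embryonic stem cells for recruiting PRC2 to CpG islands, had its lowest deposited counts in the inhibitor-treated cells. It stood at 15.9, 11.2 and 13 CPM in EZH2i, at 48.6, 36.1 and 41.8 CPM in DMSO and at 41.6, 37.4 and 45.7 CPM in p53n. The EZH2i libraries lay below all others, and the DMSO and p53n libraries overlapped. The log2 fold change of DMSO over p53n was 0.02 (SE 0.12, adjusted p = 0.895), and its sign changed under some scalings and left-out libraries, between -0.13 and 0.18 with no call in any of them. With EZH2i, Mtf2 fell by 1.64 relative to DMSO (SE 0.13, adjusted p = 5.98e-09).

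Corrected for GC content and length together, the levels of Mtf2 were 30.1, 31.6 and 29.5 CPM in EZH2i, 39, 33.1 and 36.8 CPM in DMSO and 28, 25.3 and 28.4 CPM in p53n. On this scale the 3 groups did not overlap, with DMSO the highest and p53n the lowest. The share of all genes without overlap was not counted on this scale, so the lack of overlap is not a result about Mtf2. The corrected log2 fold change was -0.26 (SE 0.09, adjusted p = 0.0127) in EZH2i over DMSO, and without DMSO replicate 1 it was -0.21 and no longer called (adjusted p = 0.0725). Corrected, Mtf2 rose by 0.41 (SE 0.08, adjusted p = 5.26e-05) in DMSO over p53n. In EZH2i over p53n it fell by 1.62 (SE 0.13) as deposited and stood at 0.15 (SE 0.09, adjusted p = 0.107) corrected. Tmed5, which shares exon bases with Mtf2, averaged 6.43 ± 2.19 CPM in EZH2i, 26.7 ± 5.27 CPM in DMSO and 37.8 ± 3.09 CPM in p53n (SD, n = 3 each).

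Phf1, the third Polycomb-like gene, was the least abundant member in every group. It had 54 to 131 counts in the EZH2i libraries, 130 to 154 in the DMSO libraries and 28 to 53 in the p53n libraries. Its levels were 5.19, 2.88 and 5.14 CPM in EZH2i, 4.6, 4.12 and 4.01 CPM in DMSO and 1.84, 1.17 and 1.22 CPM in p53n. EZH2i replicate 2 was low and brought the EZH2i group into overlap with DMSO, and both lay above p53n on this scale. Phf1 rose by 1.57 (SE 0.24, adjusted p = 7e-06) in DMSO over p53n and by 1.53 (SE 0.24) corrected. Its log2 fold change in EZH2i over DMSO was 0.07 (SE 0.21, adjusted p = 0.786) as deposited, and without EZH2i replicate 2 it was 0.29 (SE 0.19, adjusted p = 0.177). That value was slightly below 0 under some alternatives, with no call. Corrected, Phf1 fell by 0.74 in that comparison (SE 0.21, adjusted p = 0.00516). In EZH2i over p53n it rose by 1.64 (SE 0.25, adjusted p = 3.56e-06) as deposited and by 0.79 (SE 0.25, adjusted p = 0.00669) corrected, or by 0.59 to 1.05 with each library left out in turn. The corrected levels ran from 2.11 to 4.12 CPM in EZH2i, from 5.20 to 6.08 CPM in DMSO and from 1.53 to 2.44 CPM in p53n, so EZH2i overlapped p53n and lay below DMSO. Cuta, which shares exon bases with Phf1, averaged 63.6 ± 10.3 CPM in EZH2i, 29.0 ± 1.37 CPM in DMSO and 27.7 ± 2.07 CPM in p53n (SD, n = 3 each), and its part in the counts of Phf1 was not tested.

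Epop, which links PRC2 to elongin BC and the deubiquitinase USP7, was highest in the inhibitor-treated cells. Its levels were 119, 133 and 141 CPM in EZH2i, 53.6, 45.7 and 47.3 CPM in DMSO and 19.2, 19.7 and 18 CPM in p53n. No group overlapped another. Epop rose by 1.42 (SE 0.08, adjusted p = 7.35e-12) in EZH2i over DMSO, which 3.4% of the genes tested exceeded. The corrected rise was 0.66 (SE 0.07, adjusted p = 6.16e-08), which 13.3% of genes exceeded. In DMSO over p53n it rose by 1.36 (SE 0.09, adjusted p = 1.59e-11), and by 0.97 (SE 0.08) corrected. On the deposited scale, the only one on which neighbours were read, the other genes of chromosome 11 were shifted in both comparisons. Its 1300 other tested genes had a median of 0.38 in DMSO over p53n, the 198 within 5 Mb of Epop also had 0.38, and the autosomes had -0.01. For EZH2i over DMSO these medians were 0.33, 0.58 and 0.04. Genes within 5 Mb of Phf1 and Phf19 had 0.53 and 0.47 there, and those near Mtf2, Aebp2 and Jarid2 had -0.38, -0.37 and -0.20. In DMSO over p53n, genes within 5 Mb of Phf19, Aebp2 and Phf1 had 0.08, 0.07 and 0.05, and those near Jarid2 and Mtf2 had -0.03 and -0.25. The cause of these shifts was not tested. Of the 198 neighbours 13.6% had a value at or above that of Epop in DMSO over p53n and 6.06% in EZH2i over DMSO.

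**Figure D2:**
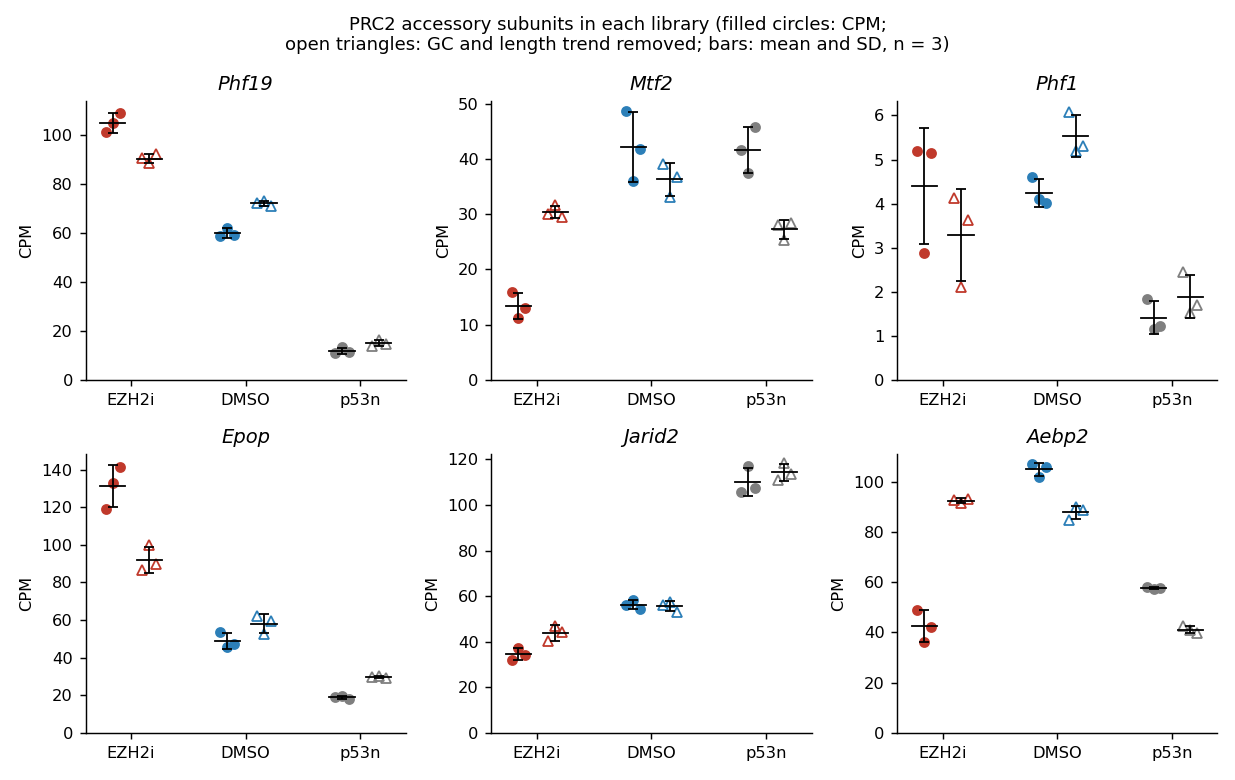
The level of each member in CPM (y axis, from 0) is plotted per library for EZH2i, DMSO and p53n (x axis), as deposited (filled circles) and corrected (open triangles), with the mean and SD of 3 libraries. Phf19 and Epop are highest in EZH2i and lowest in p53n on both scales and Jarid2 the reverse, whereas the 3 EZH2i libraries of Aebp2 and Mtf2 move up and draw together once corrected.

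Jarid2, a JmjC-family protein without known demethylase activity that helps PRC2 bind chromatin, ran opposite to Phf19. It stood at 32.1, 37.3 and 34.1 CPM in EZH2i, at 56.1, 58.4 and 54.3 CPM in DMSO and at 106, 117 and 107 CPM in p53n. The 3 groups did not overlap. Jarid2 fell by 0.97 (SE 0.07, adjusted p = 3.31e-10) in DMSO over p53n and by 1.04 (SE 0.06) corrected. It fell by 0.71 (SE 0.08, adjusted p = 6.19e-08) in EZH2i over DMSO, and by 0.34 (SE 0.07, adjusted p = 0.00018) corrected. Of all genes tested, 18.4% fell further in DMSO over p53n and 28.1% fell further in EZH2i over DMSO. The 665 other tested genes of chromosome 13 had a median of -0.18 in DMSO over p53n, and the 56 within 5 Mb of Jarid2 had -0.03. Their medians in EZH2i over DMSO were -0.40 and -0.20, all as deposited.

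Aebp2, the zinc-finger partner of JARID2, had levels of 48.9, 36.3 and 42.2 CPM in EZH2i, 107, 102 and 106 CPM in DMSO and 58, 57.4 and 57.8 CPM in p53n. The DMSO libraries were the highest and the EZH2i libraries the lowest, with no overlap. Aebp2 rose by 0.86 (SE 0.08, adjusted p = 1.45e-08) in DMSO over p53n and by 1.10 (SE 0.06) corrected. It fell by 1.30 (SE 0.09, adjusted p = 5.54e-11) in EZH2i over DMSO as deposited, but the corrected value was 0.07 (SE 0.06, adjusted p = 0.299). Corrected levels were 92.7, 91.3 and 93.2 CPM in EZH2i, 84.9, 89.8 and 88.9 CPM in DMSO and 42.5, 40.9 and 39.6 CPM in p53n. The EZH2i libraries, which had spread from 36.3 to 48.9 CPM as deposited, lay within 2 CPM of each other. The correction is fitted to each library separately and can narrow such a spread by construction, so this does not favour either scale. In EZH2i over p53n the sign turned: the log2 fold change was -0.44 (SE 0.09, adjusted p = 0.000101) as deposited and 1.17 (SE 0.06, adjusted p = 1.79e-13) corrected.

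**Figure D3:**
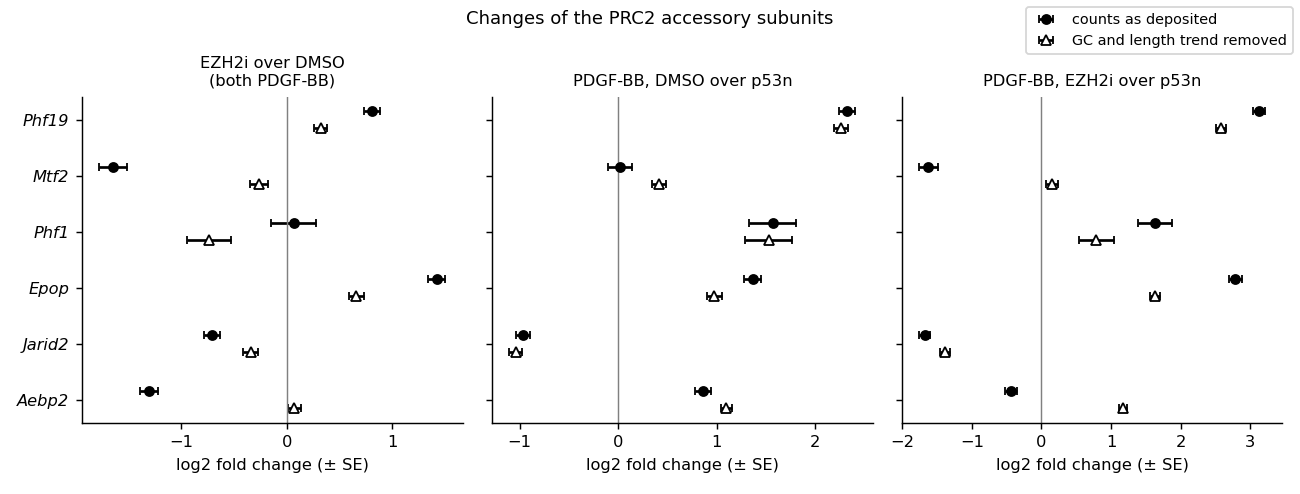
Log2 fold changes with SE (x axis) are shown for the 6 members (y axis) in EZH2i over DMSO, DMSO over p53n and EZH2i over p53n, as deposited (filled circles) and corrected (open triangles). Phf19 and Epop lie right of 0 and Jarid2 left of 0 in all 3 panels on both scales, whereas Aebp2 and Mtf2 cross or approach 0 in the panels with EZH2i and Phf1 crosses it in the first.

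In EZH2i over p53n, where 82% of all genes were called (40.3% higher and 41.7% lower), Phf19, Epop and Phf1 rose and Jarid2, Mtf2 and Aebp2 fell as deposited. Corrected, 78.5% of genes were called (38.6% higher and 39.9% lower), and Phf19, Epop, Aebp2 and Phf1 rose, Jarid2 fell and Mtf2 was not called. For EZH2i over DMSO the corrected fit called 57.9% of genes (28.7% higher and 29.1% lower), with Epop and Phf19 higher and Jarid2, Mtf2 and Phf1 lower. In DMSO over p53n it called 71.9% of genes (36.3% higher and 35.6% lower), with 5 members higher and Jarid2 lower. The 3 comparisons share libraries, so their calls are not independent of each other.

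Levels per kilobase of exon let the members be ranked within a group. In EZH2i the order was Epop at 56.7 ± 4.82, Phf19 at 20.8 ± 0.79, Aebp2 at 4.31 ± 0.64, Jarid2 at 3.55 ± 0.27, Mtf2 at 2.35 ± 0.42 and Phf1 at 1.26 ± 0.38 CPM per kb (SD, n = 3), and the library ranges overlapped only between Aebp2 and Jarid2. In DMSO it was Epop at 21.1 ± 1.8, Phf19 at 11.9 ± 0.37, Aebp2 at 10.7 ± 0.27, Mtf2 at 7.4 ± 1.1, Jarid2 at 5.79 ± 0.21 and Phf1 at 1.22 ± 0.09 CPM per kb, with no overlap between neighbours. In p53n Jarid2 led at 11.3 ± 0.61, followed by Epop at 8.2 ± 0.39, Mtf2 at 7.3 ± 0.73, Aebp2 at 5.86 ± 0.03, Phf19 at 2.38 ± 0.23 and Phf1 at 0.4 ± 0.11 CPM per kb, where Epop and Mtf2 overlapped. Jarid2 thus held 4% of the summed level of the 6 in EZH2i, 9.99% in DMSO and 31.9% in p53n. With the length of the longest transcript in place of all exon bases, Aebp2 stood above Phf19 in DMSO, and Mtf2 and Aebp2 stood above Epop in p53n. On the corrected scale Epop led Jarid2 in p53n, at 12.8 and 11.8 CPM per kb with no overlap, and Mtf2 stood above Jarid2 in EZH2i, at 5.34 and 4.52 CPM per kb. The first place in p53n therefore depends on the scale.

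Within the Polycomb-like genes the leading member changed between groups. Phf19 took 82.4%, 88.1% and 85.2% of the summed level per kilobase of Phf19, Mtf2 and Phf1 in the EZH2i libraries, 54.2%, 62.1% and 58% in the DMSO libraries and 22.1%, 27.7% and 21.3% in the p53n libraries. Mtf2 held 9.62% ± 1.65 in EZH2i and 36% ± 3.9 in DMSO, against 72.3% ± 3.3 in p53n. Corrected, Phf19 took 74% ± 0.54 in EZH2i, 64.3% ± 2.01 in DMSO and 36% ± 3.65 in p53n (SD, n = 3 each). The groups did not overlap on either scale. The ratio of Polycomb-like genes to Jarid2 and Aebp2 together, per kilobase and in log2, was 1.64 ± 0.07 in EZH2i, 0.32 ± 0.05 in DMSO and -0.77 ± 0.12 in p53n, and corrected 0.8 ± 0.05, 0.61 ± 0.07 and -0.94 ± 0.06. Jarid2 and Aebp2 together summed to 7.87 ± 0.38 CPM per kb in EZH2i, 16.4 ± 0.16 in DMSO and 17.2 ± 0.58 in p53n. Corrected, that sum was 13.9 ± 0.29 in EZH2i, 14.6 ± 0.34 in DMSO and 15.9 ± 0.34 in p53n, so the low value of EZH2i was seen mainly on the deposited scale. Aebp2 over Jarid2 in log2 was 0.27 ± 0.32 in EZH2i, 0.88 ± 0.08 in DMSO and -0.95 ± 0.09 in p53n as deposited. Corrected it was 1.06 ± 0.12, 0.64 ± 0.07 and -1.50 ± 0.08 in the same groups, which puts EZH2i above DMSO instead of below it. These shares and ratios are descriptions of RNA with no test, and say nothing of the proteins in the complex.

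**Figure D4:**
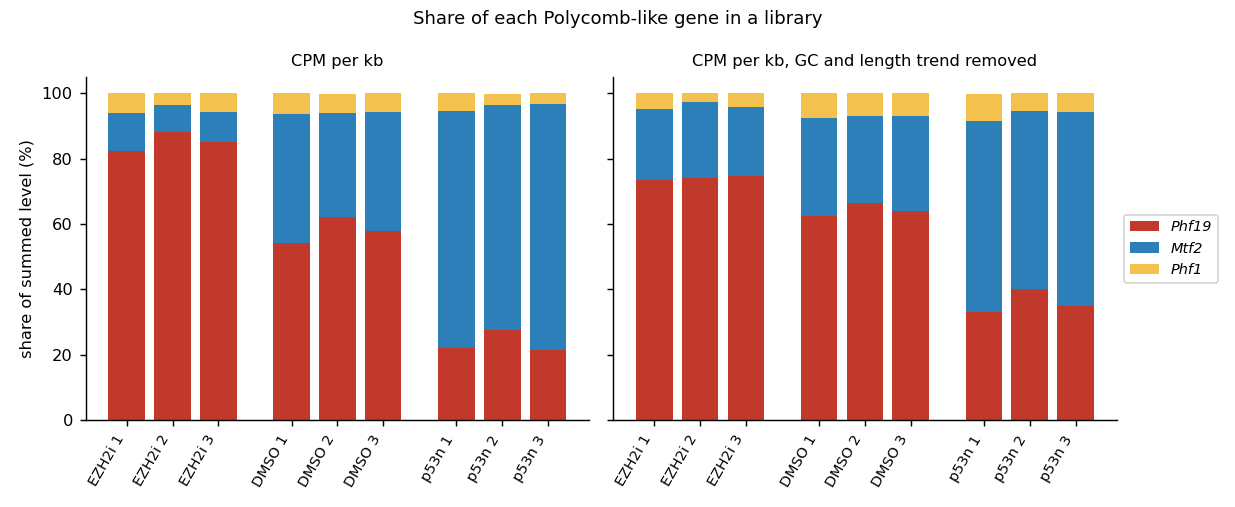
Bars give, for each library (x axis), the percent share (y axis) of Phf19, Mtf2 and Phf1 in their summed level per kilobase of exon, as deposited (left) and corrected (right). Phf19 holds 82.4% to 88.1% in EZH2i, 54.2% to 62.1% in DMSO and 21.3% to 27.7% in p53n as deposited, and the same order of groups is seen corrected.

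The core genes of PRC2 did not all change in one direction. In DMSO over p53n, where 35.3% of all genes were called higher and 34% lower, 5 of 6 core genes were higher and 1 lower. Their median log2 fold change was 0.61, against -0.02 over all genes tested. Rbbp7 rose by 1.35 (SE 0.06), the scaffold gene Suz12 by 1.22 (SE 0.18), Eed by 0.61, Ezh2 by 0.61 and Rbbp4 by 0.34, whereas Ezh1 fell by 0.59 (SE 0.10). With EZH2i, 2 core genes rose and 4 fell relative to DMSO, with a median of -0.33 against 0.02 over all genes tested, of which 72.9% were called. Corrected, where 28.7% of all genes were called higher and 29.1% lower, 2 core genes rose, 2 fell and 2 were not called. The corrected core median was 0.16, against -0.01 over all genes. Suz12 stood at 59.5, 33 and 43.6 CPM in the EZH2i libraries, 210, 173 and 183 CPM in the DMSO libraries and 77.9, 79.4 and 85.4 CPM in the p53n libraries. It fell by 2.05 (SE 0.19, adjusted p = 1.51e-05) in EZH2i over DMSO and by 1.11 (SE 0.09, adjusted p = 1.02e-08) corrected. Ezh2, the drug's target, fell by 0.62 (SE 0.06) as deposited and stood at 0.13 (SE 0.06, adjusted p = 0.0535) corrected. Rbbp4 rose by 0.74 (SE 0.07) and by 1.54 (SE 0.08) corrected. With Suz12 lower and Epop higher, the log2 ratio of Epop to Suz12 per kilobase was 2.67 ± 0.52 in EZH2i, -0.85 ± 0.03 in DMSO and -0.998 ± 0.136 in p53n, and corrected 1.33 ± 0.36, -0.46 ± 0.07 and -0.05 ± 0.04 (SD, n = 3 each).

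Other partners were read as a group of 6, of which 5 passed the filter. The sixth, Ezhip, an inhibitor of PRC2, had between 0 and 6 counts in any library. In DMSO over p53n, where 35.3% of all genes were called higher and 34% lower, 3 partners rose and 1 fell. Elob and Eloc, the elongin B and C genes that EPOP binds, rose by 0.34 and 0.31, and Usp7 rose by 0.16. Lcorl fell by 1.26, and Lcor, whose locus encodes a further PRC2 partner, was at -0.11 (adjusted p = 0.334). In EZH2i over DMSO, where 37.3% of all genes were called higher and 35.6% lower, 1 partner rose and 4 fell. Elob was at 0.87, Lcorl at -2.77, Lcor at -1.86, Usp7 at -0.94 and Eloc at -0.86. Corrected, Elob was not called at -0.11 (adjusted p = 0.271), Eloc turned to 0.32 (adjusted p = 0.000107) and Lcorl, Lcor and Usp7 remained lower by smaller amounts, at -0.59, -0.48 and -0.21. Of the H3K27 demethylase genes, Kdm6a fell by 1.67 (SE 0.10) and by 0.57 corrected in EZH2i over DMSO, and Kdm6b was at -0.17 (adjusted p = 0.0513) and fell by 0.72 corrected. In DMSO over p53n Kdm6a, an X-linked gene, fell by 1.32 and Kdm6b was at -0.04 (adjusted p = 0.649). Uty, the Y-linked relative of Kdm6a, also differed between the p53n and PDGF-BB cultures. As deposited it stood at 2.5 to 6.62 CPM in EZH2i, 21.3 to 27.2 in DMSO and 0.21 to 0.42 in p53n. The median log2 fold change of the 3 demethylase genes in EZH2i over DMSO was -1.67 as deposited and -0.59 corrected.

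**Figure D5:**
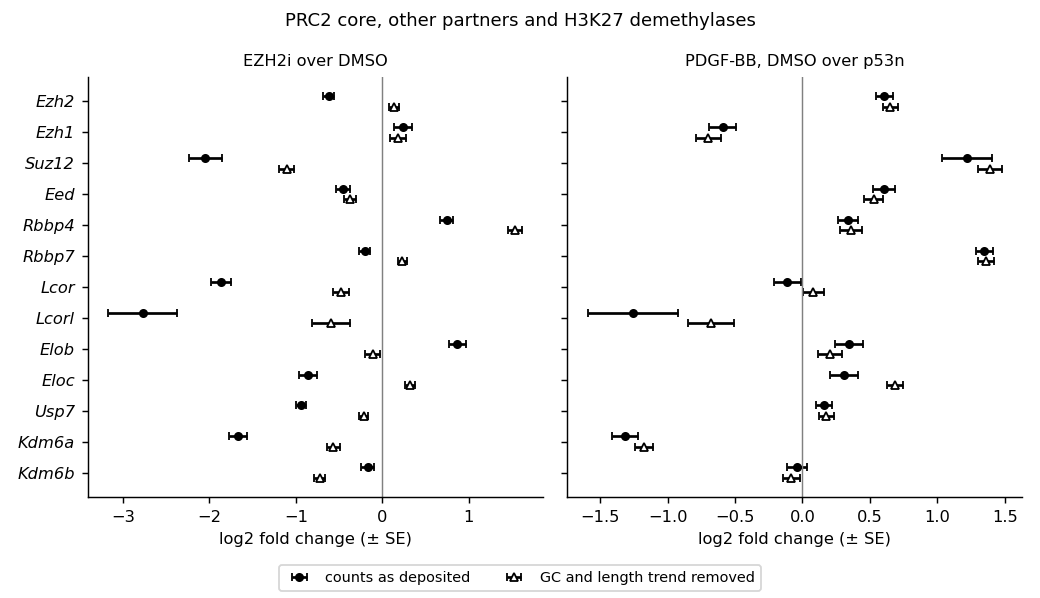
Log2 fold changes with SE (x axis) of PRC2 core genes, other partners and H3K27 demethylase genes (y axis) are shown for EZH2i over DMSO (left) and DMSO over p53n (right), as deposited (filled circles) and corrected (open triangles). Suz12 lies left of 0 on the left (-2.05 as deposited, -1.11 corrected) and right of 0 on the right (1.22), and Ezh2, Rbbp7, Elob and Eloc change sides on the left once corrected.

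The second Polycomb complex, PRC1, some forms of which bind the mark that PRC2 lays down, showed no common direction in EZH2i over DMSO. Of 21 PRC1 genes 10 rose and 9 fell there, and 8 rose and 8 fell corrected. Of all genes, 37.3% were called higher and 35.6% lower in that comparison, and 28.7% and 29.1% corrected. Phc3, a polyhomeotic subunit, fell by 1.92 (SE 0.10) and by 0.57 corrected. In DMSO over p53n, where 35.3% of all genes were called higher and 34% lower, 13 PRC1 genes rose and 4 fell. Of these L3mbtl2 rose by 1.32 (SE 0.08). Of 25 S phase genes, all 25 rose in DMSO over p53n with a median of 2.53. Rrm2, a subunit of ribonucleotide reductase, rose by 3.23. In EZH2i over DMSO 19 rose and 5 fell, and 20 rose and 1 fell corrected, with Mcm5 of the replicative helicase at 1.18 and 0.79.

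The genes most like each member over the 9 libraries were taken as those with the smallest root mean square difference of centred log2 CPM among 11359 genes. For Phf19 they were Kifc1 (0.0713), Tonsl (0.0725) and Recql4 (0.0865). For Epop they were Barx1 (0.0916), Chst7 (0.102) and Ube2ql1 (0.107). For Jarid2 they were Dnm3 (0.0689), Fermt2 (0.0708) and Syt11 (0.0716). For Aebp2 they were Mex3c (0.0646), Agfg1 (0.0659) and Ugcg (0.0687), and for Mtf2 they were Dennd4c (0.0746), Smim10l1 (0.089) and Stag1 (0.0942). Phf1, with few counts, had no gene as near, and its first was Acot9 at 0.184, followed by Irx5 at 0.22 and Stk10 at 0.223. The measure was taken on CPM as deposited, so it follows GC content as well as group.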

How the data were processed

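The members and gene lists were chosen with earlier results of these data known. The authors deposited raw counts for each gene, not normalized. By the file headers, featureCounts 1.6.3 counted read pairs over exons of Ensembl release 108 (GRCm39), unstranded, at a mapping quality of at least 20. The submitters' processing notes also name Trimmomatic and Subread, without settings for the alignment. Symbols matched 52073 of 56980 identifiers (91.4%).

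Low counts were filtered by filterByExpr in edgeR 4.0.16 under R 4.3.3, libraries were scaled by TMM, and 1 quasi-likelihood model with group as its only term was fitted to the 9 libraries. For the corrected scale, splines (5 degrees of freedom) of log2 CPM on GC content and exon length were removed per library as offsets over 16652 genes. Values per kilobase use the exon length in the table. Scripts were tested on simulated data. Libraries of a group differed by more than counting noise, so none was counted as a repeat. Every value column belonged to a sample. Genes named are the members, the fixed lists of PRC2 core, partner and demethylase genes, the called PRC1 and S phase gene with the smallest adjusted p per comparison, and the 3 nearest patterns per member. Floors cover counting error only. Alternatives were other scalings, filters, DESeq2 1.42.0, fits of 2 groups, a replicate block, and left-out libraries or X, Y and mitochondrial genes.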

Additional observations from a re-analysis of the deposited data

How the results depend on the processing

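The counts of all genes and of members called stayed within 1.5 times their reported values under every alternative run, left-out libraries included. Such a count does not show which members were called. In EZH2i over DMSO corrected, Aebp2 lost its call and Phf1 became called. Of 414 recomputed member fold changes 361 kept their direction and side of the threshold. Of the 53 that did not, 41 had the GC and length trend removed. The other 12 were changes of sign with the trend left in, none of them called in either fit: Mtf2 in DMSO over p53n, 0.02 as reported, was -0.0128 with RLE size factors and with DESeq2, -0.128 with upper-quartile scaling, -0.0598 with total counts and -0.0245 with the stricter filter, and Phf1 in EZH2i over DMSO, 0.07 as reported, was -0.0364 with no filter, -0.0201 without X, Y and mitochondrial genes and -0.0246 with only the 2 groups; the rest came from left-out libraries. With it removed, Phf1 in EZH2i over DMSO was -0.74 (-0.78 with the replicate block; -0.95 to -0.52 with each library left out), Aebp2 there was 0.0736 (0.0737; 0.0486 to 0.0883), Mtf2 in EZH2i over p53n was 0.15 (0.15; 0.10 to 0.19) and Aebp2 in EZH2i over p53n was 1.17 (1.17; 1.16 to 1.20); Mtf2 in DMSO over p53n became called at 0.41 (0.41; 0.36 to 0.48), and in EZH2i over DMSO Mtf2 lost its call without DMSO replicate 1. On the counts as deposited, leaving out each library in turn gave -0.0812 to 0.18 for Mtf2 in DMSO over p53n, -0.0733 to 0.29 for Phf1 and -1.42 to -1.20 for Aebp2 in EZH2i over DMSO, and -1.76 to -1.49 for Mtf2 and -0.54 to -0.31 for Aebp2 in EZH2i over p53n, with no change of call. The share of Phf19 among the Polycomb-like genes moved to 74% in EZH2i, 64.3% in DMSO and 36% in p53n. The cause was not tested. Combining the correction with left-out libraries, and correcting levels, were chosen after the data were seen. Upper-quartile scaling moved the median of all genes in DMSO over p53n to -0.16, against -0.02 with TMM, and no member's call changed with it. Same-numbered libraries did not deviate together in all pairs (correlations -0.23 to 0.394, over 0.1 in 2 of 9), so the numbers were not taken as pairs. The 2 pairs over 0.1 were among the 3 of EZH2i and DMSO, which ran from -0.0612 to 0.394. With the replicate block 12267 genes were called in EZH2i over DMSO (12397 without it). There were 11665 in DMSO over p53n (11780) and 13854 in EZH2i over p53n (13939), and no member's call changed with the block. Phf1, with 28 to 154 counts per library, was the member most limited by depth.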
